A study of Mus musculus with 6 samples.

Results

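The Fc receptor genes of mouse dendritic cells were examined, that is Fcgr1, Fcgr2b, Fcgr3, Fcgr4, Fcer1g, Fcgrt and Fcer2a, which were taken by gene name from the table of counts and are 7 of its 54532 genes. Dendritic cells, the antigen-presenting cells that prime T cells, were kept in culture medium. They were either labelled as control (3 libraries) or exposed to DB2313 (3 libraries), a small molecule that the study used to inhibit the transcription factor Spi1 (PU.1). Dose, duration of exposure, mouse strain, age and sex were not given in the labels, and the text of the study described its RNA-seq cells as macrophages or CD8T cells. In the table the control columns were headed BMDC and the other columns SPI1, so each direction holds only if the SPI1 columns are the DB2313 libraries. The labels did not say whether libraries of a group came from separate cultures, so p-values measure the spread between these libraries, which may be technical.

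Fc receptors bind the constant part of antibodies and so connect antibody-coated particles to immune cells. The activating receptors for IgG, encoded in the mouse by Fcgr1, Fcgr3 and Fcgr4, signal through the common gamma chain encoded by Fcer1g, whose cytoplasmic activation motif recruits the kinase Syk and starts uptake of the particle. The inhibitory receptor encoded by Fcgr2b carries an inhibitory motif, recruits the phosphatase SHIP1 and restrains the same cells, and the balance of both kinds is known to set how strongly dendritic cells respond to immune complexes. Fcgrt encodes the neonatal Fc receptor, which pairs with beta-2 microglobulin and returns IgG from endosomes. Fcer2a encodes CD23, a lectin-like receptor for IgE found mainly on B cells.

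The sequence before the start of each receptor gene is shown first, because Spi1 is known to bind purine-rich sites around GAGGAA and regulates several myeloid receptor genes. Of the 7 genes, 7 matched a RefSeq promoter table on GRCm38.p6 that spans 250 bases before to 50 bases after each start, with 10 promoters in all. GAGGAA, searched on both strands, lay in promoters of 3 genes, Fcgr1, Fcgr3 and Fcgr4, and in 28.3% of all 32851 promoters of the table. The longer word GAGGAAGT, which contains the first, was found on either strand in 3.20% of all promoters and among the 7 genes only in that of Fcgr4. No match to either word was found within these windows for Fcgr2b, Fcer1g, Fcgrt and Fcer2a. The stretch from 100 bases before to 20 bases after the start is printed for the 3 genes with a match and for Fcgr2b, the inhibitory receptor, with the match (TTCCTC, the reverse strand of GAGGAA) in capitals. The match began 55 bases before the start of Fcgr1, 6 before that of Fcgr3 and 22 before that of Fcgr4. For Fcgr3 and Fcgr2b the whole window lies inside the gene as the count table bounds it, so sequence before the outer end of either gene was not searched. For Fcgr3 a RefSeq start 9 bases further on put the same match at 15 bases before it.
Fcgr1 (chr3:96293950-96294069, minus strand): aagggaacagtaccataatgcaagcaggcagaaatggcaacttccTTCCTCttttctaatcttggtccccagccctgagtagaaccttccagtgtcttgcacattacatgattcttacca
Fcgr3 (chr1:171059384-171059503, minus strand): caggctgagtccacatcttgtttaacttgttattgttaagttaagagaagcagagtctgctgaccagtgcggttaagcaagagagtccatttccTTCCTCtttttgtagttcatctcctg
Fcgr4 (chr1:171018826-171018945, plus strand): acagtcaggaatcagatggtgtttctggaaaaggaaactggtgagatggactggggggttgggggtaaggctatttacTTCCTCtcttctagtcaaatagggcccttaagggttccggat
Fcgr2b (chr1:170976052-170976171, minus strand): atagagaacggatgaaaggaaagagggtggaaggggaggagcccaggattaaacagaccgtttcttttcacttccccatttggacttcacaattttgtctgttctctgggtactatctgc

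Fcgr2b and Fcgr3 share a near-identical extracellular part, which bears on how well their reads can be told apart. The transcripts Fcgr2b-201 and Fcgr3-204 of GENCODE M21 matched over 512 bases at 96.3% identity with 19 mismatches. The longest run without a mismatch between Fcgr2b-204 and Fcgr3-201 was 129 bases within the coding part, and it is printed because a read inside it fits both genes. On GRCm38 it covers chr1:170967980-170968081 and chr1:170966674-170966700 in exons 5 and 6 of 10 of Fcgr2b, and chr1:171057691-171057792 and chr1:171054167-171054193 in exons 3 and 4 of 5 of Fcgr3, all on the minus strand.
Fcgr2b and Fcgr3: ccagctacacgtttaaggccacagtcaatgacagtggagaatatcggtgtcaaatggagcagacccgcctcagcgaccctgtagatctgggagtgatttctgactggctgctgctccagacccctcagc
Of all words of 50 bases in Fcgr2b-204, 10.9% also occurred in coding transcripts of Fcgr3, and 12.8% of those of Fcgr3-201 occurred in Fcgr2b. The share depends on the transcript chosen. Fcgr2b-204 has 1578 bases and Fcgr2b-201 has 3544, and the share was not computed for Fcgr2b-201. Past its coding part, which ends at base 1147, Fcgr2b-201 also matched transcripts of other genes. The longest of these matches, to Cplx2 on the opposite strand, spanned 263 bases at 95.4% identity (bases 2438 to 2698). How reads with several matches were counted was not given in the sources used here, so the separate values of Fcgr2b and Fcgr3 are uncertain to that extent.

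Total counts ranged from 16146743 to 19764677 per library. Of 14174 genes with enough counts to be tested by edgeR's quasi-likelihood test, 10.6% were called changed at an adjusted p under 0.05, 4.66% higher and 5.94% lower in the DB2313 libraries. Within groups, DB2313 replicates 1 and 3 were the farthest apart (chi-square per degree of freedom of 17.7, against 4.77 to 5.28 for pairs of controls). Spi1 itself was at 366 ± 18.4 CPM (reads of a gene scaled to a common library size; SD, n = 3) in control and 329 ± 20.1 CPM in DB2313 libraries, with groups that overlapped (log2 fold change -0.15 ± 0.07 SE, adjusted p = 0.206 by edgeR). Of 12 markers of dendritic cells, 11 exceeded 1 CPM in some library, and all 12 macrophage markers did. So did 10 of 10 neutrophil, 9 of 11 mast cell and basophil, 8 of 8 T cell, 6 of 8 NK cell and 3 of 11 B cell markers. Passing 1 CPM shows that these transcripts were present and does not tell which cells held them. In such bulk samples fewer cells of a type and less RNA per cell cannot be told apart.

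Of the 7 genes, 6 had enough counts to be tested, and 4 of them were higher in the DB2313 libraries (Fcgr1, Fcgr2b, Fcgr4 and Fcgrt), none was lower, and Fcgr3 and Fcer1g did not pass. Without filtering, with limma-voom, with a length offset or with replicates blocked, Fcgr1 did not pass either. Of all genes tested, 4.66% were called higher and 5.94% lower. Log2 fold changes of the 6 genes ran from 0.10 to 0.59 with a median of 0.37, beside a median of 8.2e-04 over all genes tested. Groups did not overlap for the same 4 genes, whereas 12.9% of all genes tested were higher without overlap. The largest of these changes was 1.50-fold, so the shifts were moderate in size.

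**Figure D1:**
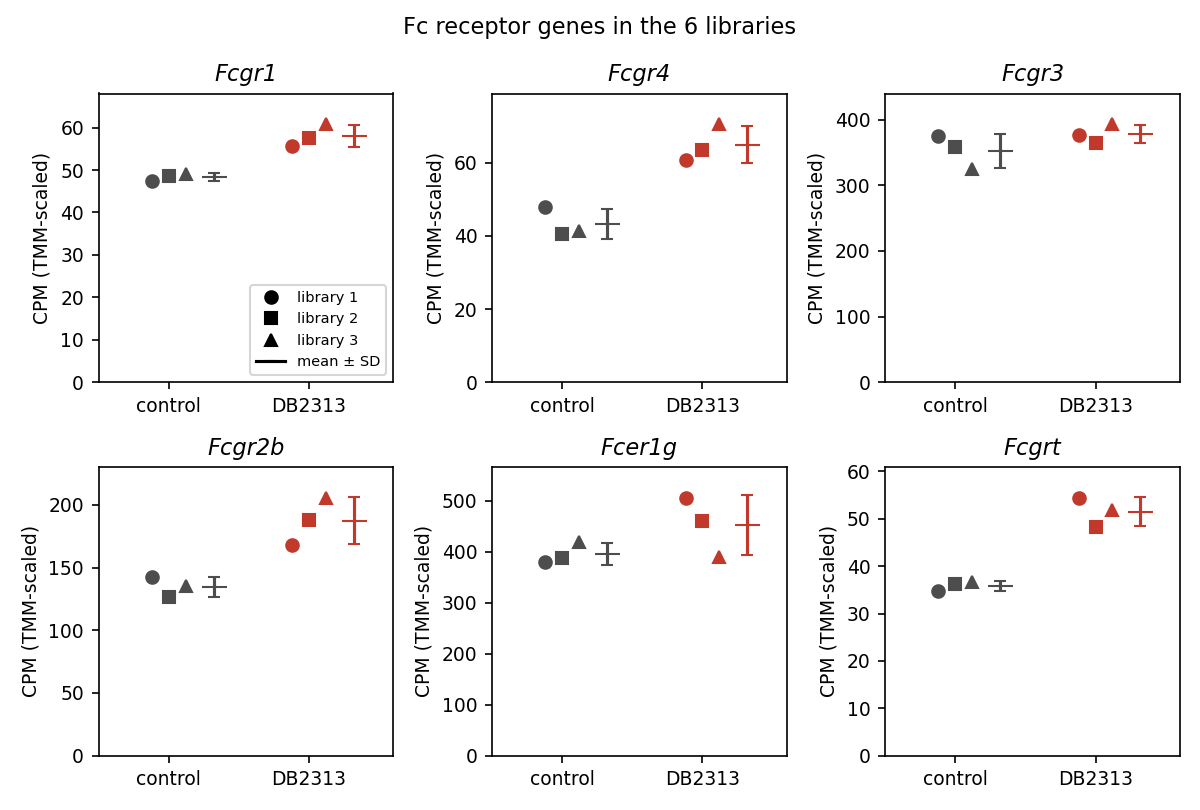
Level of each tested Fc receptor gene in CPM (TMM-scaled library sizes, axes from 0) in the 3 control and 3 DB2313 libraries. Symbols stand for libraries 1 to 3 and the bar beside them for the mean ± SD. The DB2313 libraries lie above all controls for Fcgr1, Fcgr4, Fcgr2b and Fcgrt, and overlap with them for Fcgr3 and Fcer1g.

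Among the activating IgG receptors, Fcgr4 (ENSMUSG00000059089, chr1:171018920-171029761, plus strand) rose most. It encodes a receptor of intermediate affinity that binds IgG2a and IgG2b. Its level was 48.0, 40.4 and 41.2 CPM in the control libraries (replicates 1, 2 and 3, the order used throughout) and 60.8, 63.5 and 70.5 CPM in the DB2313 libraries, from 644 to 1267 reads per library. Each DB2313 library exceeded each control. The mean went from 43.2 ± 4.19 to 65.0 ± 4.97 CPM (SD, n = 3 each), a log2 fold change of 0.59 ± 0.09 (SE) or 1.50-fold, with an adjusted p of 0.000846 by edgeR. It passed under each of 15 alternative settings, with values between 0.52 and 0.67. An annotated snRNA gene inside it, Gm26110, had at most 9 reads in a library.

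Fcgr1 (ENSMUSG00000015947, chr3:96282909-96293969, minus strand) encodes the high-affinity IgG receptor CD64, which can hold single IgG molecules. It was at 47.3, 48.5 and 49.1 CPM in the controls and at 55.6, 57.6 and 60.7 CPM in the DB2313 libraries. The controls lay close together and below all treated libraries. The rise from 48.3 ± 0.897 to 58.0 ± 2.59 CPM (SD, n = 3 each) was small, 0.26 ± 0.08 on the log2 scale or 1.20-fold, and its adjusted p of 0.0477 by edgeR lay just under the threshold. It lost the call under 10 of 15 alternatives, among them the omission of any control library (adjusted p = 0.117 to 0.161) and of DB2313 replicate 2 (0.156) or 3 (0.0765), by edgeR in each case.

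Fcgr3 (ENSMUSG00000059498, chr1:171051174-171064935, minus strand) encodes the low-affinity activating receptor CD16, the most abundant of the IgG receptor transcripts here. It was at 375, 359 and 325 CPM in the controls and at 377, 365 and 393 CPM in the DB2313 libraries. The groups overlapped. The difference of 0.10 ± 0.07 (log2 ± SE, n = 3 each) did not pass, with an adjusted p of 0.452 by edgeR, and passed under none of 15 alternatives. The fitted folds of the 3 activating receptors were 1.50 for Fcgr4, 1.20 for Fcgr1 and 1.07 for Fcgr3, and the differences between these genes were not tested.

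The inhibitory receptor gene Fcgr2b (ENSMUSG00000026656, chr1:170958617-170976547, minus strand), encoding CD32b, rose as well. It was at 142, 127 and 135 CPM in the controls and at 168, 188 and 206 CPM in the DB2313 libraries, from 2020 to 3753 reads. All treated libraries exceeded all controls. The mean went from 135 ± 7.85 to 187 ± 18.6 CPM (SD, n = 3 each), a log2 fold change of 0.48 ± 0.08 (SE) or 1.39-fold, with an adjusted p of 0.00165 by edgeR. It passed under each of 15 alternatives (0.40 to 0.55). Because of the sequence shared with Fcgr3, reads of both genes were also summed and the table fitted again, an alternative chosen after seeing the data. The sum was 488 ± 28.8 CPM in control and 566 ± 28.9 CPM in DB2313 libraries (SD, n = 3 each). Its groups did not overlap, but the change of 0.22 ± 0.07 (log2 ± SE) had an adjusted p of 0.0649 by edgeR. The antisense gene Gm38204 annotated over Fcgr2b had 0 reads in each library.

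**Figure D2:**
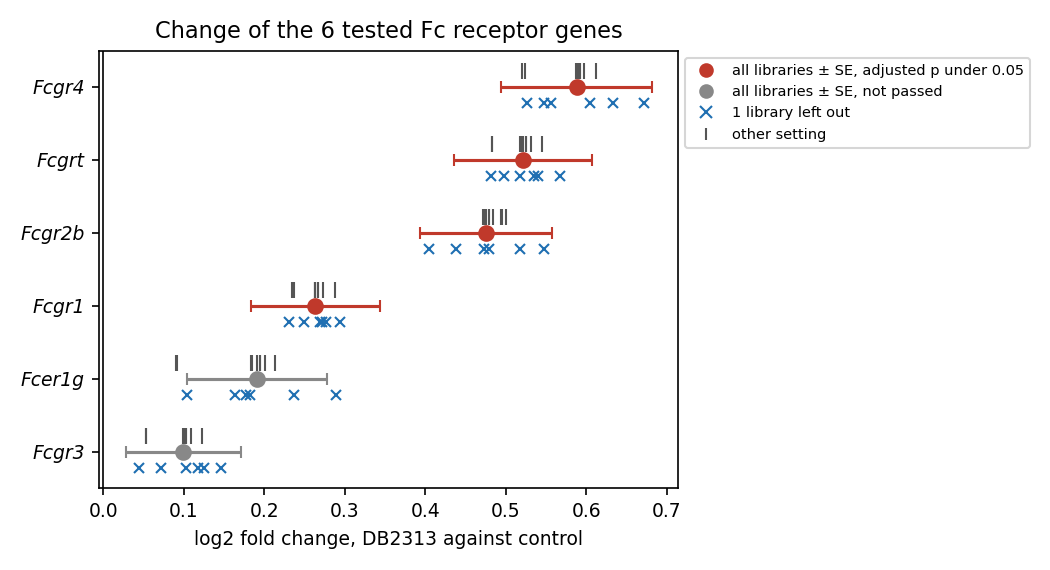
Log2 fold change (DB2313 against control) of the 6 tested genes, with the SE as bar around the value from all libraries, crosses for fits without 1 of the 6 libraries and ticks for the other 9 settings. Values stay above 0 for each gene, from 0.04 to 0.15 for Fcgr3 and from 0.52 to 0.67 for Fcgr4.

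The share of each receptor among the 4 IgG receptor transcripts was then compared, in reads per kilobase (kb) of the gene length given in the deposited table, a scale on which genes of different length can be set side by side. Fcgr3 made up 72.7 ± 1.32% of the 4 in control and 67.2 ± 1.29% in DB2313 libraries (SD, n = 3 each). Fcgr4 went from 12.3 ± 0.709% to 15.9 ± 0.557% and Fcgr2b from 8.34 ± 0.545% to 9.97 ± 0.665%. Fcgr1 stayed near 6.70 ± 0.541% and 6.91 ± 0.131%. The composition thus had less of Fcgr3 and more of Fcgr4 and Fcgr2b in each DB2313 library than in each control.

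The ratio of activating (Fcgr1, Fcgr3 and Fcgr4) to inhibitory (Fcgr2b) transcripts per kb was 11.1, 11.8 and 10.2 in the controls and 9.87, 8.71 and 8.62 in the DB2313 libraries. Each treated library was below each control. The difference in mean log2 ratio was -0.28, with a two-sided exact permutation p of 0.1, the smallest that 3 against 3 libraries can give, so this test cannot reach 0.05. The difference was -0.30 in raw counts, -0.30 with the length of the longest coding transcript in place of the deposited length (an alternative chosen after seeing the data), and -0.36 without Fcgr4. Read for read, Fcgr3 over Fcgr2b went from 2.63, 2.83 and 2.40 to 2.24, 1.94 and 1.91 (log2 difference -0.37, exact permutation p = 0.1). Reads misassigned between these 2 genes would move this ratio, and their number was not measured.

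**Figure D3:**
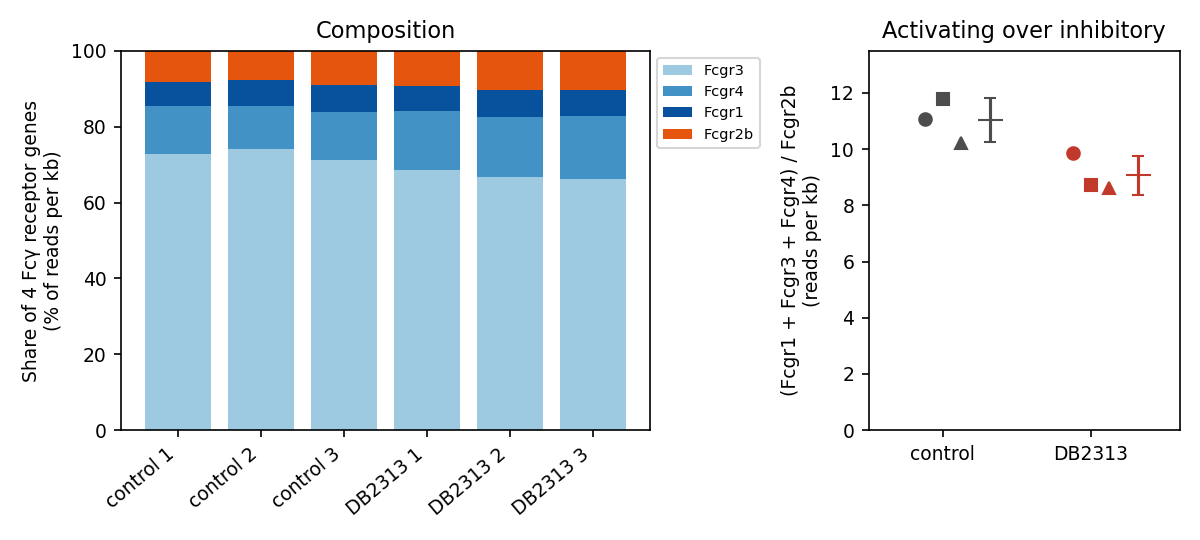
Left, share of Fcgr3, Fcgr4, Fcgr1 and Fcgr2b in their summed reads per kb in each library, in percent. Right, ratio of the 3 activating genes to Fcgr2b per kb, with symbols for libraries 1 to 3 and the mean ± SD, on an axis from 0. The ratio lies between 10.2 and 11.8 in control and between 8.62 and 9.87 in DB2313 libraries.

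Fcer1g (ENSMUSG00000058715, chr1:171229572-171234365, minus strand), the signalling partner of the activating receptors, was not called changed. It was at 380.3, 388 and 419 CPM in the controls and at 505, 461 and 389 CPM in the DB2313 libraries. DB2313 replicates 1 and 2 were above all controls, and replicate 3 lay among them. The difference of 0.19 ± 0.09 (log2 ± SE, n = 3 each) had an adjusted p of 0.199 by edgeR. Without DB2313 replicate 3 it was 0.29 ± 0.07 with an adjusted p of 0.0038, and without replicate 1 it was 0.10 ± 0.08 with an adjusted p of 0.478, by edgeR in both cases, so the call turned on 1 library. Fcer1g is the shortest of these genes, and an offset for gene length gave 0.09 ± 0.06 (adjusted p = 0.384 by edgeR). Relative to the 3 receptors that need it, Fcer1g per kb was 1.78 ± 0.212 in control and 1.78 ± 0.290 in DB2313 libraries (SD, n = 3 each, exact permutation p = 1).

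The gamma chain is also used by other cells, and markers of several cell types were summed in each library beside it. Neutrophil markers (10 of 10 over 1 CPM) summed to between 4758 and 5238 CPM in control and between 5148 and 6436 CPM in DB2313 libraries. Fcer1g took the same order over the 6 libraries as this sum, lowest in control replicate 1 and highest in DB2313 replicate 1. Mast cell and basophil markers (9 of 11 over 1 CPM) summed to between 2521 and 2721 CPM in control and between 2569.85 and 3079 CPM in DB2313 libraries, again with DB2313 replicate 1 highest and replicate 3 lowest of the treated. T cell markers (8 of 8 over 1 CPM) summed to between 171 and 199.6 CPM in control and between 172 and 267 CPM in DB2313 libraries, with the same order among the treated. The dendritic cell, NK cell and B cell sums had this order among the treated too, and the macrophage sum did not. These sums were not adjusted for gene length, and its part in this order was not tested. Pearson's r of Fcer1g over the 6 libraries was 0.960 with the neutrophil sum and 0.990 with the mast cell and basophil sum. It was 0.973 with the T cell sum and 0.782 with the sum of B cell markers. With the sums of NK cell, dendritic cell and macrophage markers it was 0.311, 0.136 and -0.793. Once each group was centred on its mean, r was 0.938 for neutrophil, 0.984 for mast cell and basophil, and 0.979 for T cell markers. It was then also 0.932 for dendritic cell and 0.892 for NK cell markers, beside 0.630 for B cell and -0.638 for macrophage markers. These values only describe libraries that share 2 groups and their depths. Of the 10 neutrophil markers, 4 were called higher (Ly6g, Elane, Retnlg and Mmp8, at 0.56, 0.69, 0.51 and 0.98) and 0 lower, and 2 of the 10 were below 0 (Camp at -0.29 and Ngp at -0.01). These neutrophil genes were named after their values were seen. Beside these calls, 4.66% of all genes tested were called higher and 5.94% lower. The part of such cells in the values of Fcer1g was not tested.

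**Figure D4:**
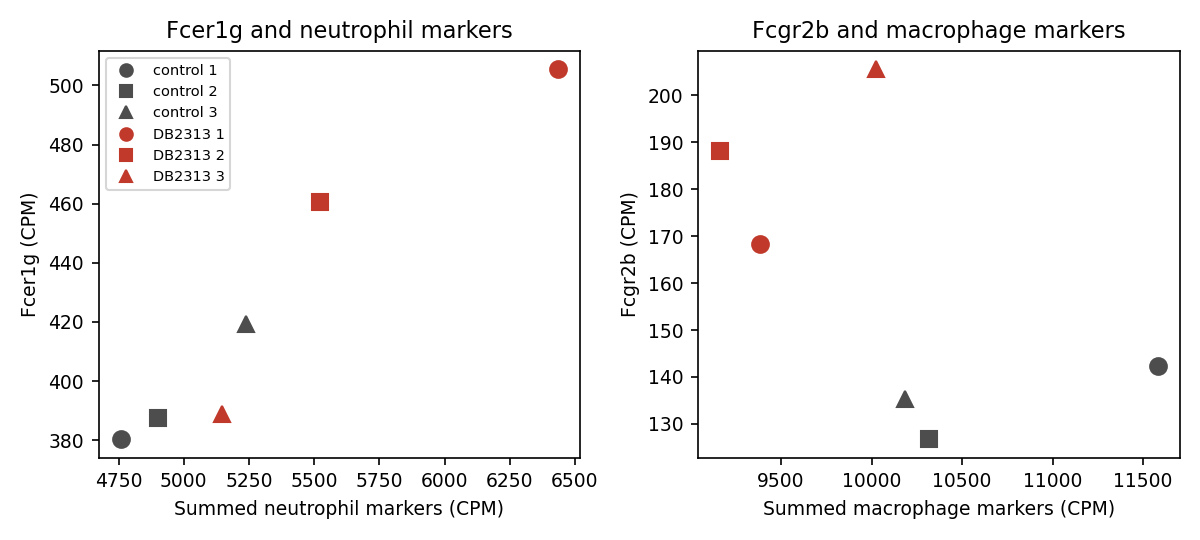
Left, Fcer1g against the sum of 10 neutrophil markers. Right, Fcgr2b against the sum of 12 macrophage markers, most of which is Lyz2, with all axes in CPM and each point 1 library. Fcer1g follows the order of the neutrophil sum in all 6 libraries, while Fcgr2b is higher and the macrophage sum lower in each DB2313 library than in each control. Pearson's r of Fcgr2b with the macrophage sum (log2 CPM) was -0.55 over the 6 libraries, and 0.64 once each group was centred on its mean.

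The sum of the 12 macrophage markers fell the other way, from between 10185 and 11581 CPM in control to between 9164 and 10026 CPM in DB2313 libraries without overlap, with 7 markers called lower (among them C1qa, a subunit of complement C1q, at -0.97) and 1 higher (Trem2, 0.44). Lyz2 alone had a mean of 8751 CPM in the controls, most of this sum. Its own change of -0.15 ± 0.07 (log2 ± SE) did not pass (adjusted p = 0.218 by edgeR). C1qa, Trem2 and Lyz2 were named after their values were seen. Dendritic cell markers summed to between 11710 and 11930 CPM in control and between 10068 and 11756 CPM in DB2313 libraries, which overlapped, with 1 marker called higher (Clec10a, 1.53) and 2 lower (Itgax, -0.58, and Batf3, -0.57), and with 9 of the 11 tested below 0. The antigen presentation gene Cd74 alone had a mean of 6557 CPM in the controls, most of this sum. These 4 genes too were named after their values were seen. For both lists the shares over all genes tested were 4.66% called higher and 5.94% called lower. The NK cell and T cell sums (6 and 8 markers over 1 CPM) overlapped between groups. The B cell sum, though low, was the one sum higher without overlap, at 39.0 to 42.3 CPM in control and 43.4 to 48.7 CPM in DB2313 libraries. Most of it was the single gene Ighm, with means of 32.5 CPM in control and 38.2 CPM in DB2313 libraries, named after its values were seen. The part of these cell types in the higher levels of Fcgr1, Fcgr2b, Fcgr4 and Fcgrt was not tested.

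Fcgrt (ENSMUSG00000003420, chr7:45092990-45103851, minus strand), the gene of the neonatal Fc receptor, was at 34.7, 36.3 and 36.7 CPM in the controls. In the DB2313 libraries it was at 54.4, 48.3 and 51.8 CPM, from 862 to 964 reads against 564 to 585 in the controls. The groups lay far apart relative to their spread. The mean rose from 35.9 ± 1.06 to 51.5 ± 3.04 CPM (SD, n = 3 each), a log2 fold change of 0.52 ± 0.09 (SE) or 1.44-fold, with an adjusted p of 0.00112 by edgeR, and passed under each of 15 alternatives (0.48 to 0.57). B2m, the gene of its partner chain, went from 2717 ± 52.1 to 2931 ± 118 CPM, a difference of 0.11 ± 0.06 that did not pass (adjusted p = 0.326 by edgeR). Per read of B2m, Fcgrt rose from between 0.0125 and 0.0136 to between 0.0164 and 0.0185 (log2 difference 0.41, exact permutation p = 0.1).

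Fcer2a (ENSMUSG00000005540, chr8:3681737-3694175, minus strand) was too low to be tested. It had 1, 0 and 2 reads in the controls and 0, 7 and 0 in the DB2313 libraries. Except for the 7 reads of DB2313 replicate 2, no library exceeded the 3 reads that a count of 0 still allows, which is 0.150 to 0.188 CPM here, so no fold is given. B cell markers, of the cells known for CD23, were also low, with 3 of 11 over 1 CPM (Cd79b, Cd22 and Ighm) and Ms4a1 and Pax5 below it, all named after their values were seen. The sum over the list was higher in each DB2313 library (43.4 to 48.7 CPM) than in each control (39.0 to 42.3 CPM), with 0 of the 3 tested markers called. Ighm made up most of it, with means of 32.5 CPM in control and 38.2 CPM in DB2313 libraries. Between the same means Cd79b went from 3.01 to 4.90 CPM, and Cd22 went the other way, from 3.24 to 1.76 CPM.

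Per kb of the deposited gene length, Fcer1g was the highest of the members in the controls at 453 ± 23.8 CPM per kb, followed by Fcgr3 at 203 ± 14.8, Fcgr4 at 34.4 ± 3.33, Fcgr2b at 23.3 ± 1.36, Fcgr1 at 18.7 ± 0.347 and Fcgrt at 17.1 ± 0.505 (SD, n = 3 each). No neighbours in this order overlapped in the controls. In the DB2313 libraries the values were 517 ± 67.2 CPM per kb for Fcer1g, 218 ± 8.13 for Fcgr3, 51.7 ± 3.96 for Fcgr4, 32.4 ± 3.22 for Fcgr2b, 24.5 ± 1.45 for Fcgrt and 22.4 ± 0.999 for Fcgr1. Fcgrt and Fcgr1 stood in the opposite order there, and their libraries overlapped. The deposited length of Fcgr2b, 5790 bp, exceeds its longest coding transcript of 3544 bp, and with lengths of the longest coding transcripts Fcgr2b stood at 38.0 ± 2.22 CPM per kb beside 34.4 ± 3.33 for Fcgr4 in the controls. On that length Fcgrt was above Fcgr1 in the controls already, at 20.3 ± 0.599 against 18.7 ± 0.347 CPM per kb. The order within both of these pairs therefore depends on the length chosen.

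For each tested member, the protein-coding genes with the most similar course of log2 CPM over the 6 libraries were listed among 9398 genes with a mean log2 CPM of at least 3. For Fcgr1 these were Ifit1, Lgals9 and Dnajc10, for Fcgr2b Gsap and Ppp1cc, for Fcgr4 Msh3, Cfap20 and Mmp8, and for Fcgr3 Cops3, Klhl9 and Fbxl19. Fcer1g was matched by Capns1, Rpl10 and Dpm3, and Fcgrt by Pcna, Metrnl and Stx2. Pearson's r lay between 0.975 and 0.999 over 6 libraries that share 2 groups and their depths, and describes these libraries only.

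Genes that act with the receptors were compared next, in 4 lists with 96 genes, of which 91 were tested. Of these, 7 were higher and 12 lower, together 20.9%, beside 10.6% of all genes tested. Medians of the lists were close to 0, at -0.07, -0.04, 0.01 and -0.11 on the log2 scale, so the receptors with their median of 0.37 lay above each of them. Members and lists were chosen with earlier results of these data known, so these shares and medians only describe the chosen genes.

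**Figure D5:**
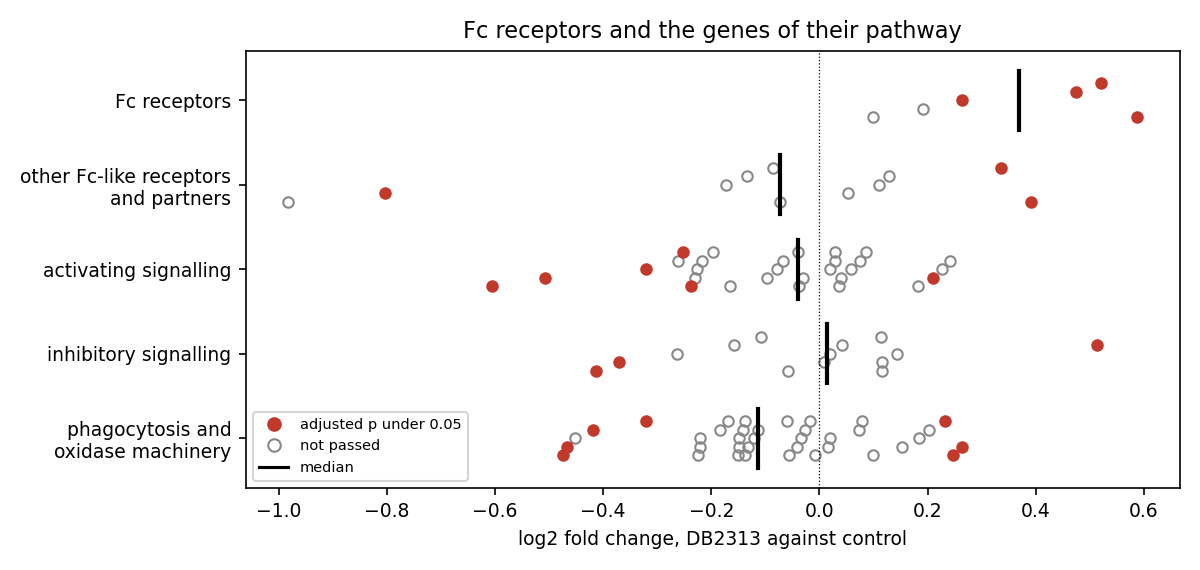
Log2 fold change (DB2313 against control) of the tested genes among the Fc receptors and in 4 lists of related genes, 1 point per gene, filled at an adjusted p under 0.05, with the median as a black line. The 6 receptor genes lie between 0.10 and 0.59, while points of the other lists fall on both sides of 0.

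Among 16 other antibody receptors and partners, 11 were tested, 2 rose and 1 fell. Trim21, a cytosolic receptor for antibody, went from 29.5 ± 2.34 to 38.8 ± 4.11 CPM (0.39 ± 0.10, adjusted p = 0.0243 by edgeR). Fcer1a, the alpha chain of the high-affinity IgE receptor that also needs Fcer1g, rose by 0.34 (adjusted p = 0.0244 by edgeR) and was named after its values were seen. Fcrls, an Fc receptor-like gene known from microglia and macrophages, fell from 19.8 ± 2.59 to 11.3 ± 1.47 CPM (-0.80 ± 0.14, adjusted p = 0.00174 by edgeR).

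Of 29 activating signalling genes, all tested, 1 rose and 5 fell. Syk, the kinase recruited by the gamma chain, was at 677 ± 23.6 CPM in control and 659.6 ± 46.5 CPM in DB2313 libraries (-0.04 ± 0.07, adjusted p = 0.803 by edgeR). Tyrobp, the DAP12 adaptor that resembles the gamma chain in function, rose by 0.21 ± 0.06 (adjusted p = 0.0494 by edgeR), just under the threshold. Pik3cb, a catalytic subunit of phosphoinositide 3-kinase, fell from 56.8 ± 4.44 to 37.4 ± 3.62 CPM (-0.60 ± 0.10, adjusted p = 0.000816 by edgeR). The adaptor Blnk fell from 27.7 ± 2.01 to 19.5 ± 2.82 CPM (-0.51 ± 0.12, adjusted p = 0.0121 by edgeR). The other 3 that fell were Src, Pik3cd and Prkcd, with log2 fold changes of -0.32, -0.24 and -0.25, named after their values were seen.

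Of 14 inhibitory signalling genes, all tested, 1 rose and 2 fell. Inpp5d, which encodes the SHIP1 phosphatase used by Fcgr2b, was at -0.06 ± 0.07 (adjusted p = 0.665 by edgeR), and Ptpn6, which encodes SHP-1, at 0.11 ± 0.07 (adjusted p = 0.329 by edgeR), so neither passed. Sh2d1b1, the adaptor EAT-2, rose from 30.9 ± 1.87 to 44.0 ± 2.01 CPM (0.51 ± 0.09, adjusted p = 0.00184 by edgeR). Inppl1, the related phosphatase SHIP2, and the adaptor Dok2 fell by 0.41 and 0.37 and were named after their values were seen.

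Of 37 genes of phagocytosis and the phagocyte oxidase, all tested, 3 rose and 4 fell. None of the 7 changed by 0.5 or more on the log2 scale, and they were named after their values were seen. Rac2, Arpc3 and Elmo1, which act on the actin skeleton, rose by 0.23, 0.26 and 0.25. Asap1, Pak1, Myo10 and Cybb fell by 0.32, 0.47, 0.42 and 0.47, the last of them encoding the catalytic subunit of the oxidase. With replicates blocked only 3 genes over the 4 lists were called higher, and without 1 library the number ranged from 1 to 8. It was 1 without any of the control libraries and without DB2313 replicate 2, and 8 without DB2313 replicate 3. Lower calls were 7 without control replicate 2, control replicate 3 or DB2313 replicate 2, and 21 without DB2313 replicate 3.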

How the data were processed

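RNA-seq of 3 control and 3 DB2313-treated libraries of mouse dendritic cells was used. The authors deposited unnormalised read counts of each gene with gene position and length in 1 table. Per the labels, reads were processed with CASAVA 1.8, HISAT2 2.0.5 and featureCounts 1.5.0-p3, whereas the methods of the study name LifeScope, so the counting tool is uncertain. Strandedness, genome build and the treatment of reads with several matches were not given in the sources used here. Starts and ends of 98.33% of 54495 gene identifiers, and of all 7 receptors, matched GENCODE M21, hence GRCm38. Groups followed the treatment in the labels. Columns were matched to samples by their names and numbers.

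The test was the quasi-likelihood F test of edgeR 4.0.16 (R 4.3.3) with TMM, filterByExpr, a single term for treatment, and adjustment by Benjamini-Hochberg over 14174 genes. A call is an adjusted p under 0.05. CPM uses TMM-scaled library sizes. Ratios were tested by a two-sided exact permutation over libraries. Alternatives were other size factors and filters, DESeq2 1.42.0, limma-voom (limma 3.58.1), a length offset (lowess, span 0.3), the replicate number as a block, and each library left out. Transcripts were compared with blastn 2.17.0. The script was tested on simulated data.

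Deviations of same-numbered libraries correlated at 0.0041, -0.02 and -0.11, so the numbers were not taken as pairs. The members and lists were chosen with earlier results of these data known. Named were all members, genes of the 4 lists called changed by at least 0.5 (log2, at most 6 per list), Syk, Tyrobp, B2m, Trim21, Inpp5d, Ptpn6, Spi1 and the 3 genes most like each member, of which 1 is not reported here. Other genes, cell markers included, were named after their values were seen. Errors cover the spread between libraries only, and no molecular identifiers were stated to be used.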

Additional observations from a re-analysis of the deposited data

How the results depend on the processing

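Between 3 and 4 members were called higher and 0 lower under all 15 alternatives, with Fcgr2b, Fcgr4 and Fcgrt in each and Fcgr3 in none. Fcgr1 kept its direction but not its call with no filter (0.27, adjusted p = 0.0707 by edgeR), limma-voom (0.26, adjusted p = 0.0505 by limma), the gene length offset (0.24, 0.0624), the replicate block (0.26, 0.114) and both of these together (0.23, 0.104). With 1 library left out Fcgr1 ranged from 0.23 to 0.29. Fcer1g was called without DB2313 replicate 3 alone and ranged from 0.10 to 0.29. Leaving out 1 library gave between 328 (without DB2313 replicate 2) and 1097 (without DB2313 replicate 3) genes higher and between 411 and 1311 lower in the whole table, with at most 383 higher and 485 lower without a control library. Among the 4 lists it gave between 1 and 8 higher and between 7 and 21 lower, both most without DB2313 replicate 3. The replicate block left 3 genes of the 4 lists higher and changed no other call of a member. The activating to inhibitory ratio ranged from -0.35 to -0.23 with 1 library left out. The median log2 fold change of all genes lay between -0.0049 and 0.02 over these settings. The causes were not tested. The groups overlapped for Fcgr3 and Fcer1g, and the reads of Fcgr2b and Fcgr3 could not be fully separated.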

Other observations

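Fcgr2b, Fcgr3, Fcgr4 and Fcer1g lie close together on chromosome 1. Of the genes from 200 kb before to 200 kb after them, 46 were in the table and 23 that are no receptor of the set were tested. Of these, 1 was called higher, Usf1, a transcription factor gene at 0.31 ± 0.07 (log2 ± SE, adjusted p = 0.0143 by edgeR), and 0 were lower, with a median log2 fold change of 0.15. Over all genes tested, 4.66% were called higher and 5.94% lower, and the median was 8.2e-04. Usf1 was named after its values were seen. Over the same stretch Fcgr2b and Fcgr4 were at 0.48 and 0.59, and Fcgr3 and Fcer1g, which did not pass, at 0.10 and 0.19.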
